A study of Arabidopsis thaliana with 16 samples.

Results

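Heme proteins of 2 families, ascorbate peroxidases and cytochromes c, were described along the Arabidopsis thaliana root with and without iron. The genes were chosen by annotation, with earlier results of these data known: SAPX (AT4G08390), TAPX (AT1G77490), CYTC-1 (AT1G22840) and CYTC-2 (AT4G10040). Each was represented by 1 probe set, so 4 of the 13513 probe sets annotated to a single gene were members. All 4 passed the filter on low signals, TAPX through 14 of the 16 arrays and the others through all 16. The arrays on which TAPX lay below the filter level were both zone 4 arrays on -Fe medium (percentiles 39.2 and 15.8).

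Ascorbate peroxidases use ascorbate to reduce hydrogen peroxide to water at a heme group, which holds an iron atom. SAPX encodes the stromal form, which in Arabidopsis is targeted to both plastids and mitochondria, and TAPX encodes the form anchored to the thylakoid membrane. CYTC-1 and CYTC-2 encode cytochrome c, the small heme protein of the mitochondrial intermembrane space that carries electrons from complex III to complex IV of the respiratory chain and also accepts electrons from the last enzyme of ascorbate synthesis.

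Columbia seedling roots were cut into 4 zones, and each zone was hybridised to Affymetrix arrays. Zone 1 was the lowest 150 µm. Zone 2, of 200 µm, held the rest of the meristem. Zone 3, of 200 to 300 µm, stopped short of the lowest root hairs, and zone 4 was the 1000 µm above it. Seedlings had 5 days of growth before they were moved to standard medium, which held iron as Fe(III)-EDTA, or to -Fe medium, in which 0.3 mM Ferrozine, an iron chelator, replaced the iron salt. The 8 groups (4 zones on 2 media) had 2 arrays each, every one from a pool of about 15 roots. The labels give no mutant or transgene. How long the seedlings stayed on the second medium is stated in conflicting ways: 24 h for both media in the treatment protocol, but 1 h on standard and 24 h on -Fe medium in the descriptions of the samples. If the descriptions are right, medium and time cannot be told apart. In such whole-tissue pools, fewer cells of a type and less RNA per cell cannot be told apart either.

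The labels were checked on other genes first. BHLH101, a regulator induced by iron deficiency, had a mean of 5.66 intensity units on standard and 472 on -Fe medium, and PYE, another such regulator, 67.2 and 235. From zone 2 to zone 3 on standard medium the root hair genes EXPA7, EXPA18 and SCN1 rose, by 4.68, 5.02 and 1.02 (log2, limma, adjusted p = 0.000483, 0.000507 and 0.0054), and AUR1, a kinase of dividing cells, fell by 1.27 from zone 1 to zone 2 (adjusted p = 0.0136). Median array intensities ranged from 51.2 to 76.0. In zone 4 the second standard array had a 25S rRNA control signal of 348 (2953 to 8609 on the other arrays), and the first -Fe array had an actin 3′ to 5′ signal ratio of 10.2 (3.93 to 8.51 on the others). Calls lost without these 2 arrays, and differences between media that moved by over 1.5 times without them, are given with that value for TAPX, CYTC-2 and SAPX. For CYTC-1, which was not called, the zone 4 difference between media of 0.22 (log2) became 0.11.

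SAPX was lower on -Fe medium in every zone, and its level there was lowest in the zone with the first root hairs. Its pairs of intensities from zone 1 up to zone 4 were 1636 and 1939, 1873 and 2339, 1512 and 1615, and 1604 and 1605 on standard medium. On -Fe medium the pairs, in the same order of zones, were 587 and 857, 675 and 721, 485 and 351, and 299 and 320. All 8 -Fe arrays lay below all 8 standard arrays, which 0.0485% of the 16505 probe sets tested, SAPX included, did in this direction. The mean over zones fell from 1765 ± 274 to 537 ± 207 intensity units (SD, n = 8), or to 30.4% of the standard level.

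The difference between media averaged over the zones was -1.79 ± 0.11 for SAPX (log2, SE; 95% interval -2.03 to -1.55; limma with Benjamini-Hochberg adjustment over all probe sets tested, adjusted p = 1.07e-06). In this comparison 1.41% of all probe sets were called (adjusted p under 0.05) and 0.739% were called lower. With the replicate number as a block in each zone, the count of all calls was 444 in place of 232. By zone, the -Fe level of SAPX was 40.4% of the standard level in zone 1, 33.1% in zone 2, 26.7% in zone 3 and 19.3% in zone 4. The log2 differences were -1.32 (adjusted p = 0.0498), -1.58 (adjusted p = 0.0139), -1.90 (adjusted p = 0.00129) and -2.35 (adjusted p = 0.000124). SAPX was thus called lower in all 4 zones, as were 0.0182% of probe sets, while 0.109%, 0.103%, 0.291% and 0.927% of probe sets were called in zones 1 to 4, and 0.0242%, 0.0242%, 0.0666% and 0.248% called lower.

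The zone 1 call of SAPX lay at the edge of the threshold. It was lost when any single array other than the second -Fe array of zone 1 was left out (adjusted p from 0.0515 to 0.698), and with a replicate block in each zone (adjusted p = 0.0527). The zone 2 call was lost without either standard array of zone 2 (adjusted p = 0.0531 and 0.099) or either -Fe array of zone 2 (0.227 and 0.136). Both were also lost without the 2 zone 4 arrays with unusual controls (0.187 and 0.0777). The calls in zones 1, 2 and 3 were lost in fits restricted to the 4 arrays of a zone (0.846, 0.0998 and 0.188).

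Whether the difference between media itself varied among zones was tested separately. For SAPX this F test gave an unadjusted p of 0.0327 and an adjusted p of 1.00 over all probe sets, so the larger difference in the upper zones did not pass. In the same test 0.121% of probe sets were called.

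**Figure D1:**
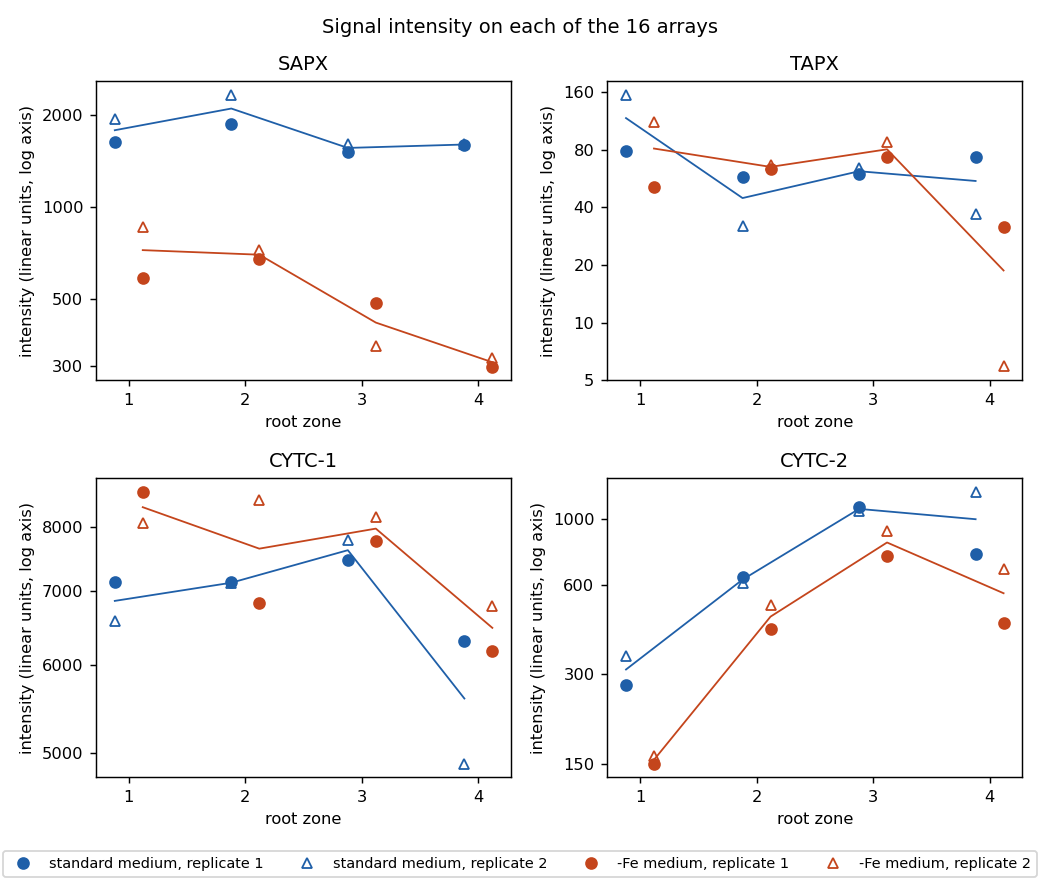
Signal intensity (linear units on a logarithmic axis, each panel with its own range) of SAPX, TAPX, CYTC-1 and CYTC-2 against root zone. Points are single arrays, 2 per zone and medium, and lines join the group means. The -Fe arrays of SAPX (299 to 857) all sit below the standard arrays (1512 to 2339), and those of CYTC-2 sit below the standard arrays within each zone.

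In falling order the SAPX group means were 2106 ± 330 (zone 2), 1787 ± 214 (zone 1), 1605 ± 0.948 (zone 4) and 1564 ± 73.3 (zone 3) on standard medium, and 722 ± 191 (zone 1), 698 ± 32.6 (zone 2), 418 ± 94.8 (zone 3) and 310 ± 14.9 (zone 4) on -Fe medium (SD, n = 2). Neighbours in this order overlapped between zones 2 and 1 and between zones 4 and 3 on standard medium, and between zones 1 and 2 on -Fe medium. On standard medium no step between neighbouring zones passed, and the F test over the 4 zones did not either (adjusted p = 0.299). On -Fe medium SAPX fell by 0.75 on the log2 scale from zone 2 to zone 3 (adjusted p = 0.0133), a step at which 50.6% of all probe sets were called and 27.8% called lower. This call was lost without the second -Fe array of zone 2 (-0.70, adjusted p = 0.071) or the second -Fe array of zone 3 (-0.52, adjusted p = 0.134). The step from zone 3 to zone 4 on -Fe medium was -0.41 and did not pass (limma, adjusted p = 0.253). The F test over zones on -Fe medium passed (adjusted p = 0.000658), as it did for 77.4% of probe sets.

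TAPX, the thylakoid-membrane enzyme of the same family, was dim and did not pass in any comparison of media. Its pairs of intensities from zone 1 up to zone 4 were 78.6 and 155, 57.4 and 31.9, 59.5 and 63.7, and 72.8 and 36.9 on standard medium. On -Fe medium the pairs, in the same order of zones, were 51.0 and 111, 63.2 and 66.7, 73.2 and 87.1, and 31.5 and 5.93. The last value lay below the offset of 7.73 added before taking logs, so the size of differences that rest on it depends on that offset. Averaged over the zones the difference between media was -0.26 (log2, 95% interval -0.81 to 0.30, adjusted p = 0.696). The interval of TAPX therefore includes both a fall of 0.81 and a rise of 0.30. Without the 2 zone 4 arrays with unusual controls the averaged difference was -0.55 (adjusted p = 0.328).

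The zones of TAPX did not share a direction. The differences were -0.50 in zone 1, 0.52 in zone 2, 0.34 in zone 3 and -1.37 in zone 4 (adjusted p = 1.00, 1.00, 0.953 and 0.321). Arrays of the 2 media did not overlap in zones 2 and 3, where -Fe was higher (13.8% and 11.7% of all probe sets did so), or in zone 4, where -Fe was lower (26.5%). Both zone 4 -Fe arrays lay below the filter level for TAPX. The zone 4 difference of TAPX ran from -2.13 to -0.61 when single zone 4 arrays were left out. Without the 2 arrays with unusual controls it was -2.56, which set the standard array at 72.8 against the -Fe array at 5.93.

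In falling order the TAPX means were 117 ± 53.7 (zone 1, standard), 80.9 ± 42.3 (zone 1, -Fe), 80.2 ± 9.82 (zone 3, -Fe), 64.9 ± 2.46 (zone 2, -Fe), 61.6 ± 3.00 (zone 3, standard), 54.8 ± 25.4 (zone 4, standard), 44.7 ± 18.0 (zone 2, standard) and 18.7 ± 18.1 (zone 4, -Fe). Neighbours in this order overlapped except zone 3 and zone 2 on -Fe medium, and zone 2 on standard medium and zone 4 on -Fe medium. On -Fe medium TAPX fell by 1.92 on the log2 scale from zone 3 to zone 4 (adjusted p = 0.0249), into a group wholly below the filter level. At this step 15.6% of probe sets were called and 8.74% called lower. The call was lost without the first or second -Fe array of zone 3 (adjusted p = 0.088 and 0.119) or without the second -Fe array of zone 4 (-1.16, adjusted p = 0.247). The F test over zones on -Fe medium passed (adjusted p = 0.0118) and did not without that zone 4 array (adjusted p = 0.236).

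The response of the 2 ascorbate peroxidase genes was then compared directly. The difference between media of SAPX minus that of TAPX was -1.53 ± 0.29 (log2, SE; 95% interval -2.21 to -0.85; exact permutation test of media within zones, two-sided, p = 0.00463 and 0.00463 after adjustment over the 2 pairs of genes compared). By zone it was -0.81, -2.09, -2.24 and -0.97, and the arrays' SAPX minus TAPX values did not overlap between media in 3 of the 4 zones. How often other pairs of genes do so was not computed. SAPX was known to be lower on -Fe medium when the pair was chosen. TAPX was dim, and changes of dim probe sets are understated on this scale. The part of this in the gap was not tested. Zones 2 and 3, where TAPX was higher on -Fe medium on all arrays, had the widest gap.

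**Figure D2:**
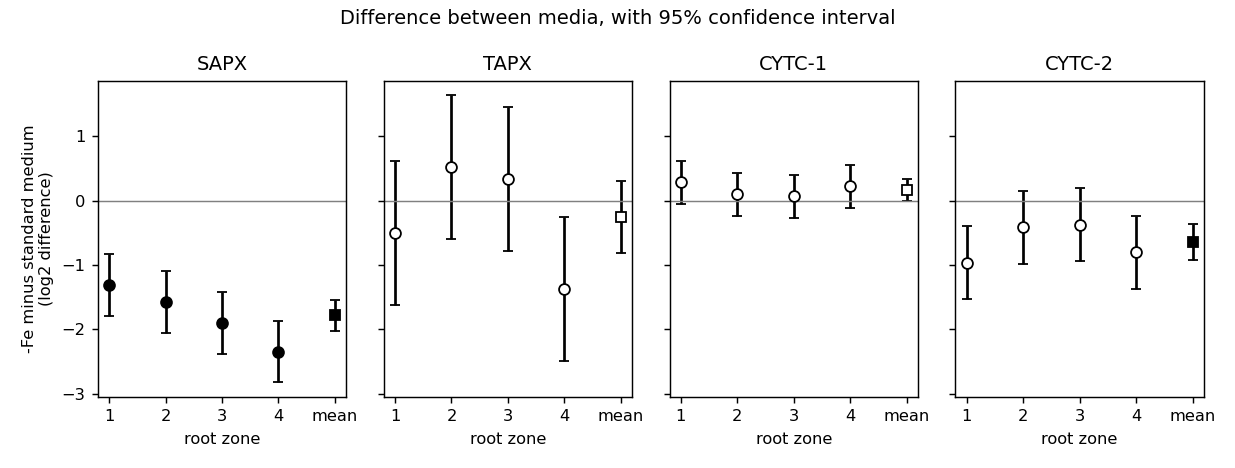
Difference between -Fe and standard medium (log2, with 95% intervals from limma) for each gene, by zone (circles) and as the mean of the 4 zones (squares), filled where the adjusted p was under 0.05. SAPX lies below 0 throughout, from -1.32 in zone 1 to -2.35 in zone 4, CYTC-2 averages -0.64, and the averaged intervals of TAPX and CYTC-1 include 0.

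CYTC-1 gave one of the brightest signals on the arrays and differed little between media. It ranked between 33 and 177 from the top among the 22746 probe sets on every array. Its pairs of intensities from zone 1 up to zone 4 were 7132 and 6578, 7128 and 7110, 7461 and 7772, and 6306 and 4886 on standard medium. On -Fe medium the pairs, in the same order of zones, were 8602 and 8056, 6825 and 8456, 7767 and 8165, and 6177 and 6785. The groups overlapped in zones 2, 3 and 4, and in zone 1 both -Fe arrays were above both standard arrays, as for 15.5% of probe sets.

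For CYTC-1 the difference between media was 0.28, 0.09, 0.06 and 0.22 in zones 1 to 4 (log2) and 0.17 averaged over them, with a 95% interval of -0.0024 to 0.33 (adjusted p = 0.349). The mean was 6797 ± 899 on standard and 7604 ± 893 on -Fe medium (SD, n = 8). No step between zones passed on either medium. The F tests over zones gave adjusted p = 0.0759 on standard and 0.177 on -Fe medium. The first passed only without the first standard array of zone 4 (adjusted p = 0.0336), among the 16 arrays left out in turn.

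In falling order the CYTC-1 means were 8329 ± 386 (zone 1, -Fe), 7966 ± 282 (zone 3, -Fe), 7641 ± 1153 (zone 2, -Fe), 7617 ± 220 (zone 3, standard), 7119 ± 12.7 (zone 2, standard), 6855 ± 391 (zone 1, standard), 6481 ± 430 (zone 4, -Fe) and 5596 ± 1005 (zone 4, standard). Neighbours overlapped except zones 3 and 2 on standard medium. Zone 4 had the lowest mean on both media.

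CYTC-2, the second cytochrome c gene, was lower on -Fe medium and differed among zones on both media. Its pairs of intensities from zone 1 up to zone 4 were 277 and 347, 640 and 610, 1100 and 1062, and 761 and 1235 on standard medium. On -Fe medium the pairs, in the same order of zones, were 150 and 160, 427 and 512, 752 and 914, and 448 and 677. In each zone both -Fe arrays lay below both standard arrays, which 1.01% of all probe sets did in all 4 zones. For single zones those shares were 15.1%, 20.3%, 17.0% and 26.5%.

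Averaged over the zones CYTC-2 fell by 0.64 on the log2 scale on -Fe medium (SE 0.13, 95% interval -0.92 to -0.36, limma, adjusted p = 0.0303), from 754 ± 353 to 505 ± 271 intensity units (SD, n = 8, a spread that holds the zone differences). No single zone passed: the differences were -0.97 (adjusted p = 0.835), -0.41 (1.00), -0.38 (0.863) and -0.81 (0.225) in zones 1 to 4. The level on -Fe medium was 49.7%, 75.1%, 77.1% and 56.4% of that on standard medium. The zone 4 difference of CYTC-2 ran from -1.15 to -0.46 when single zone 4 arrays were left out, and was -0.17 (adjusted p = 0.899) without the 2 zone 4 arrays with unusual controls. The F test of a difference among zones gave an adjusted p of 1.00.

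The averaged call of CYTC-2 depended on single arrays. It was lost without either standard or either -Fe array of zone 2, without either -Fe array of zone 3, without the second standard array of zones 1 or 4, and without the first -Fe array of zones 1 or 4 (adjusted p from 0.0504 to 0.0897, log2 difference from -0.68 to -0.55). Without the 2 zone 4 arrays with unusual controls the difference was -0.48 (adjusted p = 0.112). With arrays centred on their medians it was -0.56 (adjusted p = 0.0936). The median over all probe sets was -0.06 in this comparison and 0.03 after that centring.

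CYTC-2 rose from the tip into zone 3. On standard medium it rose by 0.99 from zone 1 to zone 2 (adjusted p = 0.0215), where 20.5% of probe sets were called and 10.6% called higher. It rose by a further 0.78 from zone 2 to zone 3 (adjusted p = 0.0247), against 50.0% called and 22.9% called higher. On -Fe medium the same steps were 1.55 (adjusted p = 0.00236, with 30.7% called and 13.4% called higher, and a median over all probe sets of -0.15) and 0.82 (adjusted p = 0.0194, with 22.9% called higher). From zone 3 to zone 4 the differences were -0.16 on standard medium (adjusted p = 0.755) and -0.58 on -Fe medium (adjusted p = 0.157).

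On each medium the F test over zones passed for CYTC-2 (adjusted p = 0.00019 on standard, where 73.7% of probe sets passed, and 2.56e-05 on -Fe). The step from zone 1 to zone 2 on standard medium was lost without either standard array of zone 1 (adjusted p = 0.122 and 0.063) or the first of zone 2 (0.139). The next step on that medium was lost without any one of the standard arrays of zones 2 and 3 (adjusted p from 0.059 to 0.106), and with array weights (0.089). On -Fe medium the step from zone 2 to zone 3 was lost without the first -Fe array of zone 2 (0.118) or the second of zone 3 (0.124).

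In falling order the CYTC-2 means were 1081 ± 27.4 (zone 3, standard), 998 ± 336 (zone 4, standard), 833 ± 115 (zone 3, -Fe), 625 ± 21.0 (zone 2, standard), 563 ± 162 (zone 4, -Fe), 469 ± 60.1 (zone 2, -Fe), 312 ± 49.5 (zone 1, standard) and 155 ± 6.74 (zone 1, -Fe). Neighbours overlapped except between zone 3 on -Fe and zone 2 on standard medium and across the last 2 steps, down to zone 1. The tip held the lowest CYTC-2 level on both media. The tip mean of CYTC-1 was its highest on -Fe but not on standard medium, and its F tests over zones did not pass (limma, adjusted p = 0.177 on -Fe and 0.0759 on standard medium).

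The probe sets of the 2 cytochrome c genes differed in their response to the medium. That of CYTC-1 was among the brightest on every array, and whether differences at such signals are understated was not tested. The difference between media of CYTC-1 minus that of CYTC-2 was 0.81 ± 0.16 (log2, SE; 95% interval 0.44 to 1.17; exact permutation test of media within zones, two-sided, p = 0.00154, the smallest its arrangements can give, and 0.00309 after adjustment over both pairs). By zone it was 1.25, 0.51, 0.44 and 1.03, with no overlap of the arrays' CYTC-1 minus CYTC-2 values between media in any of the 4 zones. The share of other gene pairs with this pattern was not computed. CYTC-1 and CYTC-2 were chosen with earlier results of these data known. Both pair comparisons stayed under 0.05 without any single array and under the 4 other settings tried for each.

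Across the 16 arrays the members' log2 values were not closely related. Pearson's r was 0.34 between SAPX and TAPX and -0.37 between CYTC-1 and CYTC-2, and 0.13 between SAPX and CYTC-2, the 2 genes called lower on -Fe medium. The arrays share zones and media, so these are descriptions only.

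Genes around the same pathways were read from lists. Of 34 nuclear genes for partners of cytochrome c (complexes III and IV, their assembly and GLDH), 21 were measured and none was called between media, averaged or in any zone (limma, averaged log2 differences from -0.34 to 0.37, median 0.02, against -0.06 over all probe sets). In the averaged comparison 3 of the 21 had an unadjusted p under 0.05, as had 2405 of the 16505 probe sets. GLDH, the last enzyme of ascorbate synthesis and an electron donor to cytochrome c, had 433 intensity units on both media (difference -0.07, adjusted p = 0.801, picked out after its values were seen).

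Of 10 genes of the ascorbate-glutathione cycle, which regenerates ascorbate, 3 were measured: ATMDAR2, a monodehydroascorbate reductase, and the glutathione reductase genes GR1 and GR. By limma none was called between media (averaged differences 0.04, 0.04 and -0.01, 0 with an unadjusted p under 0.05). Of 8 superoxide dismutase genes and their chaperone, which precede ascorbate peroxidase in removing reactive oxygen, only the chaperone CCS was measured (0.25, adjusted p = 0.661). The other ascorbate peroxidase and catalase genes (9), APX1 among them, and the alternative oxidase genes (5) were not analysed here, having no probe set annotated to them alone.

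Of 21 genes of heme synthesis and breakdown, 7 were measured and none was called between media by limma (2 had an unadjusted p under 0.05 in the averaged comparison). Their averaged differences ran from -0.46 in HEMA3, a glutamyl-tRNA reductase gene, to 0.02 in GSA1, the next enzyme of the path, with a median of -0.10, against -0.06 over all probe sets. The median of these 7 genes was -0.01 with median centring and with quantile normalization. The ferrochelatase genes FC1 and FC2 were not analysed here. Of 11 other heme and siroheme proteins only SIR, the siroheme-carrying sulfite reductase, was measured. SIR fell from 959 to 329 intensity units, by 1.53 on the log2 scale (SE 0.12, adjusted p = 7.88e-06), and was called lower in zone 3 (-1.49, adjusted p = 0.0147) and zone 4 (-2.11, adjusted p = 0.000434) but not in zones 1 and 2 (-1.22 and -1.30, adjusted p = 0.123 and 0.0814).

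**Figure D3:**
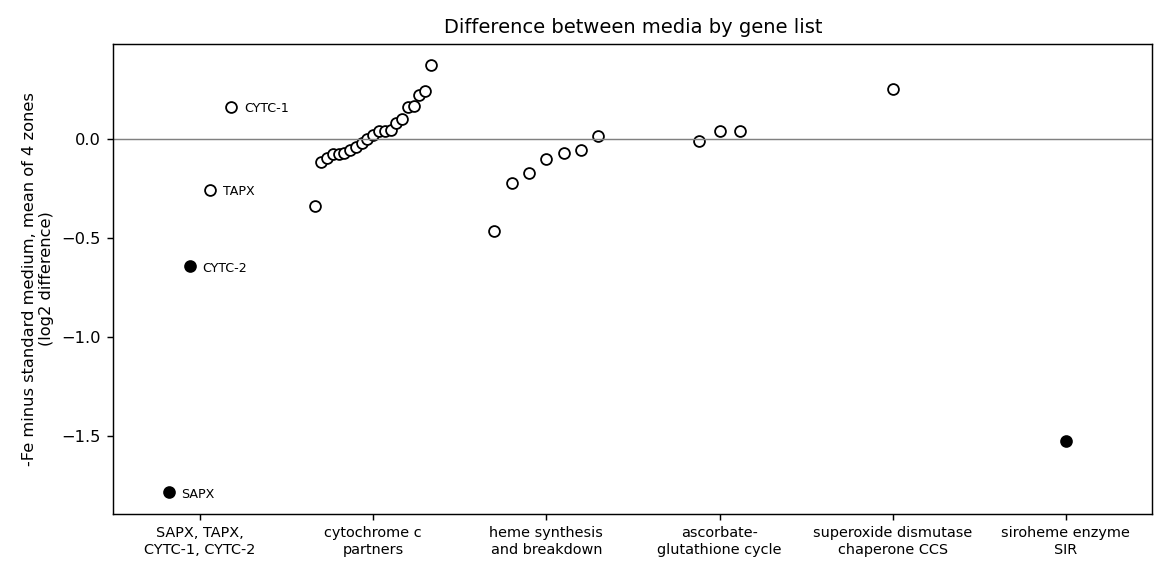
Difference between -Fe and standard medium averaged over the 4 zones (log2) for SAPX, TAPX, CYTC-1, CYTC-2 and the measured genes of 5 lists. Each point is 1 gene and filled points had an adjusted p under 0.05. The 21 cytochrome c partners and 7 heme synthesis genes are all open, and SAPX, CYTC-2 and SIR are filled.

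At the step from zone 2 to zone 3 on standard medium, at which CYTC-2 rose, none of its 21 measured partners was called higher and 3 were called lower, against 22.9% of all probe sets called higher and 27.1% called lower. These were AT5G61310, a complex IV subunit gene (-1.99), CCMH, which acts in attaching heme to cytochromes c (-1.44), and GLDH (-1.11), named after their values were seen. The same 3 fell at that step on -Fe medium (-2.24, -1.14 and -1.11). One was called higher there, AT3G27240, for cytochrome c1 of complex III (0.50, adjusted p = 0.0155).

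Green shoot tissue was checked as another source of transcripts from nuclear genes for plastid proteins. Of 9 marker genes only PSAN, a photosystem I subunit, was measured, and it was lower on -Fe medium, as SAPX was: its intensities ran from 67.7 to 709 on the standard arrays and from 5.05 to 161 on the -Fe arrays (log2 difference -2.22, adjusted p = 0.0152). By zone its differences between media were -2.76, -2.30, -2.25 and -1.57, smallest in zone 4, where that of SAPX was largest, and none passed alone. On -Fe medium its mean was lowest in zone 2 (13.2) and highest in zone 4 (122), where SAPX was lowest. On standard medium the PSAN mean was lowest in zone 2 (89.4) and highest in zone 1 (454, from arrays at 198 and 709). Its part in the SAPX result was not tested.

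The genes with the most similar patterns were taken as the 5 highest Pearson r of log2 values over the 16 arrays, among 9167 kept probe sets of 1 gene. For SAPX these were SIR (0.95), scpl35 (0.87), LPA66 (0.87), AT1G68650 (0.86) and AT3G49160 (0.83). Each was itself lower on -Fe medium, which a ranking over arrays of both media favours for a gene that splits by medium. AT3G49160 had a -Fe mean of 7.33 intensity units, below the offset. Within the 8 standard arrays their r with SAPX was 0.37, 0.79, -0.07, 0.83 and -0.82, and within the 8 -Fe arrays 0.89, 0.86, 0.60, 0.39 and 0.07. SIR, LPA66 and AT3G49160 thus resembled SAPX less within standard medium than over both media.

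CYTC-2 had the closest companions. AT3G20510 (r = 0.97), AT4G35500 (0.95), AT1G11380 (0.93), AT5G40510 (0.93) and AT5G20700 (0.91) all had r of 0.90 or more within each medium, from 0.90 to 0.97 on standard and from 0.91 to 0.97 on -Fe medium. AT3G20510 rose from 568 and 508 intensity units in zone 1 to 3530 and 4806 in zone 3 on standard medium, and from 194 and 220 to 1938 and 2221 on -Fe medium. Between media AT3G20510 (-1.04, adjusted p = 0.000299) and AT5G40510 (-1.12, adjusted p = 0.00441) were called lower, and the other three were not.

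For TAPX the closest were psbT (0.77), AT5G08320 (0.76), AT5G47190 (0.76), ALDH3F1 (0.75) and AT3G28530 (0.75), and for CYTC-1 AT2G07718 (0.80), AT3G27540 (0.78), AT1G76880 (0.78), AT3G56060 (0.77) and AT4G35240 (0.76). None of these 10 genes was called between media. Several were as dim as TAPX or dimmer, psbT with a mean of 13.7 intensity units on standard medium and AT2G07718 with 18.0.

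**Figure D4:**
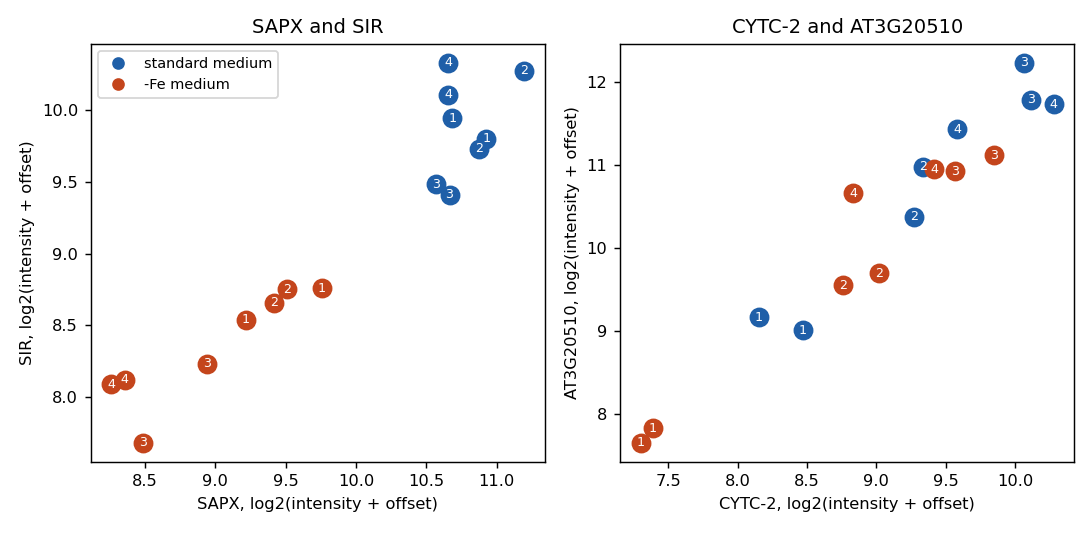
Log2 intensity (with the offset) of SIR against SAPX and of AT3G20510 against CYTC-2, the most similar gene to each. Each point is 1 of 16 arrays, coloured by medium and numbered by zone. The points of SAPX and SIR fall into separate groups by medium (r = 0.37 on standard and 0.89 on -Fe medium), and those of CYTC-2 and AT3G20510 lie along a line that both media share (r = 0.96 on each), with zone 1 at its lower end.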

How the data were processed

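The deposited values were linear array signal intensities, made by the authors with MAS5 per the submitters' processing notes (version and genome build not given in the sources used here), from 1 array per pool. Control probe sets (64 of 22810) were left out, and the others were put on a log2 scale after adding 7.73, their 20th percentile, with no further normalization. Changes of dim probe sets are understated on the log2(intensity + offset) scale. Kept were 16505 probe sets above their array's 40th percentile on at least 2 arrays. limma 3.58.1 (R 4.3.3) fitted 8 group means over all arrays with an intensity trend. P-values were adjusted by Benjamini-Hochberg within each contrast (threshold 0.05). The test of the difference between media averaged over zones was checked on simulated data with independent noise on each array. That setting left out the correlations between groups given below, so it does not cover them. The number of arrays limits precision, and p-values measure the spread between pools, which may be technical.

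Genes were named from the platform annotation (1 gene for 13513 probe sets, several for 503, not listed for 8730), with RefSeq names of assembly TAIR10.1 for 13436. Members and lists were chosen with earlier results of these data known. Beside members, the text names the 5 most similar genes, list genes called between media (at most 6 a list) and the label checks. List genes named beyond that rule (GLDH, AT5G61310, CCMH, AT3G27240, HEMA3, GSA1, ATMDAR2, GR1, GR and CCS) were named after their values were seen. Deviations of same-numbered arrays from their group means correlated between media in every zone (r from 0.18 to 0.37) and from -0.13 to 0.46 over all 28 pairs of groups. The data thus did not single out pairing within zones, and the labels do not state it. Replicate numbers were used as a block in alternative fits only, and the main tests were unpaired. Sequences were not used here.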

Additional observations from a re-analysis of the deposited data

Results flagged for a closer look

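For TAPX the medium difference took opposite directions in different zones with no overlap of arrays. Both -Fe arrays were higher than both standard arrays in zone 2 (log2 difference 0.52, as for 13.8% of all probe sets) and zone 3 (0.34, 11.7%). Both were lower in zone 4 (-1.37, 26.5%), where both -Fe arrays lay below the filter level. Such a lack of overlap was common in single zones, and the share of probe sets with this pattern over the zones was not computed. The difference among zones was tested with limma's F test and did not pass (unadjusted p = 0.0813, adjusted p = 1.00). The zone 4 value includes the array at 5.93 intensity units, and without it the difference was -0.61. Without the other -Fe array of zone 4 it was -2.13, and without the 2 zone 4 arrays with unusual controls -2.56.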

How the results depend on the processing

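The averaged SAPX call, its zone 4 call, the F tests of CYTC-2 over zones and both pair comparisons kept their direction and their side of 0.05 under every alternative run for them. No called difference of these 4 genes changed sign, whereas 10 of the 32 that were not called did under at least 1 alternative, TAPX between media in zone 1 (-1.01 to 0.0016) and CYTC-1 in zone 2 (-0.06 to 0.25) among them. Of SAPX, TAPX, CYTC-1 and CYTC-2, 1 (SAPX) was called between media in each zone and 2 (SAPX and CYTC-2) in the average. In zone 1 that count was 0 with no offset, no filter, median centring, no intensity trend, a replicate block in each zone, zones fitted alone, or (added after seeing the data) without the 2 zone 4 arrays of unusual controls. It was also 0 in zone 2 under the last 2 of these and in zone 3 with zones fitted alone. The averaged count was 1 (SAPX) with median centring and without those 2 arrays. From zone 2 to zone 3 on standard medium the count was 0 in place of 1 with array weights. Leaving out single arrays gave counts of 0 to 1 in zones 1 and 2, 1 to 2 in the average, 0 to 1 for zone 1 to zone 2 and for zone 2 to zone 3 on standard medium, 0 to 2 for zone 2 to zone 3 and 0 to 1 for zone 3 to zone 4 on -Fe medium, and 1 to 2 for any zone difference on standard medium. With the replicate number as a block, the averaged calls held for SAPX (adjusted p = 1.69e-06, or 1.05e-05 with a block per zone) and CYTC-2 (0.0103 and 0.0111); the paired tests of the SAPX and TAPX and of the cytochrome c pairs gave exact p = 0.00781 each. The pairing changed no call of these genes but SAPX in zone 1. Over all probe sets, counts of calls, and so the shares printed beside calls, moved by over 1.5 times as follows. In zone 1 the 18 calls became 0 with zones fitted alone. In zone 2 the 17 became 26 with array weights and 10 without the 2 zone 4 arrays. In zone 3 the 48 became 23 with array weights and 14 with zones fitted alone. Without the 2 zone 4 arrays the 153 of zone 4 became 32, the 232 averaged calls 107 (444 with a replicate block per zone), and the zone 3 to zone 4 calls 455 of 1416 on standard and 1393 of 2568 on -Fe medium, while array weights gave 328 on standard medium. The 20 probe sets whose difference between media varied among zones became 10 with no offset, 31 with a doubled offset, 35 with a replicate block and 3 without those arrays. Leaving out single arrays gave counts of 3 to 21 in zone 1, 6 to 22 in zone 2, 23 to 125 in zone 3, 63 to 223 in zone 4 and 147 to 319 in the average. For the steps from zone 1 up it gave 310 to 4086 (3377 with all arrays), 5245 to 8214 (8249) and 198 to 3367 on standard medium, and 1400 to 5778 (5062) and 837 to 3222 for the first and last steps on -Fe medium, and 6 to 28 for a difference among zones. The lowest of the first step on standard medium came without the first zone 2 array, on -Fe medium without the second zone 1 array, and that of the last step without the second zone 3 array on standard and the second zone 4 array on -Fe medium. Median centring moved the median log2 difference of all probe sets from -0.06 to 0.04 between media in zone 2, from -0.09 to 0.05 in zone 4, from 0.07 to -0.04 for zone 3 to zone 4 on standard medium and from -0.15 to 0.02 for zone 1 to zone 2 on -Fe medium. The 2 arrays per group and the dim signal of TAPX limit what could be seen.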
